A study of Gallus gallus with 9 samples.

Results

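Explants of splanchnic mesoderm from chick embryos, which contains progenitors of the anterior heart field, were cultured for 3 h with BMP4 or without it. The comparison rests on 2 of the 9 arrays of the study, 1 untreated and 1 with human recombinant BMP4 at 200 ng/ml in the medium, both taken after 3 h. It covers every probe set of the array other than the Affymetrix controls, 38439 in all, of which 28329 passed a filter on dim signals and were tested. The other 7 arrays hold untreated explants at 0 h, at 12 h (arrays A and B) and at 24 h, and explants with BMP4 at 12 h (A and B) and at 24 h. All cultured explants shared a collagen substrate and a medium with fetal calf serum and chick embryo extract, so the untreated arm was not free of growth factors. The embryonic stage and the number of embryos per sample are not given in the sources used here, and the labels do not say whether A and B were separate pools of explants. Each 3 h arm has 1 array, so its error was taken from the 12 h duplicates: the lone arrays were assumed to vary as the 12 h arrays did, and every p-value here measures only the spread between those samples.

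Bone morphogenetic proteins are secreted ligands of the TGF-beta family. They bind pairs of serine/threonine kinase receptors, which phosphorylate SMAD1, SMAD5 and SMAD9; these enter the nucleus with SMAD4 and act on target genes such as the ID and MSX families, and the same signal raises its own inhibitors, SMAD6, SMAD7 and BAMBI. In the heart-forming region BMP is known to favour cardiac differentiation, whereas FGF ligands keep progenitors proliferating. At 3 h the comparison addresses the earliest transcripts to move after BMP4 is added.

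The labelled tissue was read against markers of the anterior heart field at 3 h. ISL1, which marks second heart field progenitors, had signals of 6578 untreated and 11119.96 with BMP4, NKX2-5 had 6136 and 9211, TCF21 had 1984 and 2226, and FOXC2 had 595 and 465. TBX1 and HAND2 were measured at lower signals, 224 and 266 in the untreated explants. The probe sets of FGF10 (13.7 and 52.4), MEF2C (49.9 and 32.1) and GATA4 (56.4 and 57.4) were near or below the array medians of 67.6 and 67.3. Epithelial genes were bright in both arms, with EPCAM at 21664 and 21048 and CLDN1 at 21553 and 21351, and whether other tissue was carried along with the mesoderm was not tested.

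Over the whole array, the share of 2-fold differences between the arms at 3 h was no larger than between duplicates. A signal difference is given as log2 of the signal plus 27.79, BMP4 minus untreated, and 1 on this scale is 2-fold. At 3 h 6.54% of the tested probe sets differed 2-fold or more, against 7.43% between A and B of the untreated 12 h arrays and 6.58% between A and B with BMP4. The median size of a difference was 0.28, against 0.302 and 0.288. Dim probe sets carried most of it: 12.8% of the dimmest 25% were past 2-fold at 3 h and 0.635% of the brightest 25%. In the brightest 25% the 12 h duplicates gave 0.918% and 0.847%. The 2 arrays of 3 h correlated at r = 0.972 over the probe sets, each more closely with the other than with any further array. The 2% trimmed mean signals of the 9 arrays ran from 503.7 to 504.7, and the 3′ to 5′ ratio of the controls, a sign of RNA quality, was 4.51 untreated and 4.96 with BMP4 for ACTB and 2.22 and 1.84 for GAPDH. The untreated 3 h array had the highest GAPDH ratio of the 9, and its part in the differences was not tested.

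**Figure D1:**
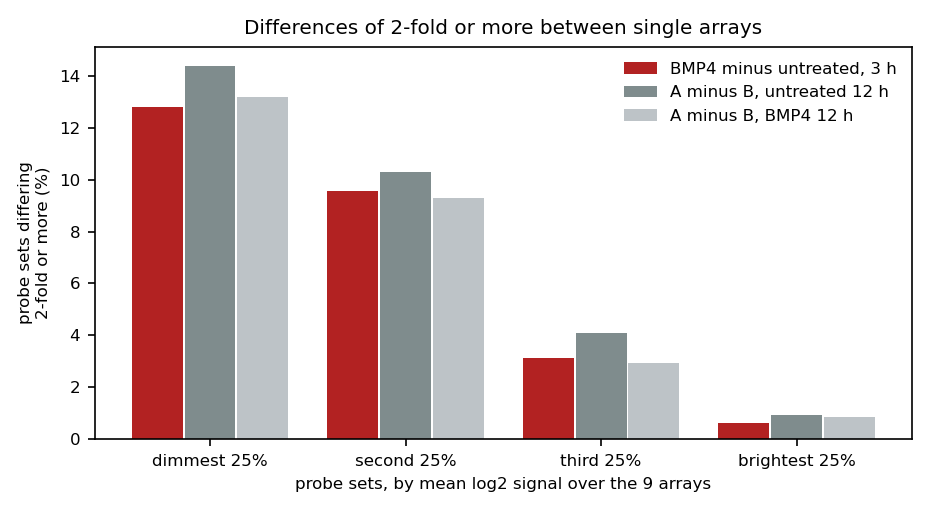
Percent of probe sets (vertical axis) that differ 2-fold or more between single arrays, in 4 groups of probe sets from dim to bright (horizontal axis), for BMP4 minus untreated at 3 h and for arrays A minus B in each 12 h arm. The 3 h bars run from 12.8% in the dimmest 25% to 0.635% in the brightest 25% and are below the taller of the duplicate bars in every group.

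After 3 h of BMP4, 3 genes stood clear of that spread, all of them higher: MSX2, FAM132A and LOC417741. In limma 4 probe sets, or 0.0141% of those tested, were called higher at an adjusted p under 0.05, and 0 (0%) were called lower; the 4 cover 3 named genes, 0.0256% of those tested. An unadjusted p under 0.05 took 1212 probe sets (4.28%), 622 higher (2.2%) and 590 lower (2.08%). Of all tested probe sets 916 (3.23%) were 2-fold or more higher and 937 (3.31%) lower, and 813 (2.87%) and 815 (2.88%) were so by more than both duplicate differences. MSX2 encodes a homeobox repressor that is a textbook direct target of BMP. Its signal was 2348 untreated and 8980.2 with BMP4 at 3 h, 3648 and 3944 against 11966 and 13192 at 12 h, 3067 against 13266 at 24 h, and 2702 at 0 h. Every BMP4 array lay above every untreated one. MSX2 rose by 1.92 ± 0.19 (3.79-fold, limma adjusted p = 0.0123), and the 12 h difference, from other arrays, was 1.72 (limma adjusted p = 0.000781).

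LOC417741, a protein-coding gene without a symbol of its own in the annotation, had the largest difference. Its signal was 529.8 untreated and 6016 with BMP4 at 3 h, 2215 and 2185 against 17022 and 16118 at 12 h, 2255 against 12573 at 24 h, and 1411 at 0 h. Each BMP4 array was again above all untreated arrays, and the untreated 3 h array was the lowest of all. The gene rose by 3.44 ± 0.20 (10.8-fold, limma adjusted p = 0.000233) and by 2.90 at 12 h (limma adjusted p = 4.1e-05). A second of its probe sets rose by 3.23 (342.2 to 3453, limma adjusted p = 0.000649); the third was dim in both arms (25.6 and 27.5). With the mean of its 3 probe sets the gene no longer passed (2.24, limma adjusted p = 0.0804). FAM132A, which encodes a secreted protein of the C1q and TNF-related family, had 912 untreated and 4423 with BMP4 at 3 h, 3227 and 2933 against 6251 and 7492 at 12 h, 4961 against 5635 at 24 h, and 471 at 0 h. It rose by 2.24 ± 0.23 (4.73-fold, limma adjusted p = 0.0127) at 3 h and by 1.15 at 12 h (limma adjusted p = 0.0146). At each time the BMP4 signals were above the untreated ones, with 1 array per arm at 3 h and 24 h. The untreated 24 h array exceeded the BMP4 3 h array. The untreated signal was lowest at 0 h and highest at 24 h, where the arms were 0.18 apart. All 4 calls were lost when the variance was not allowed to follow the signal (0 called, limma adjusted p = 0.89 for each of the 3 genes).

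**Figure D2:**
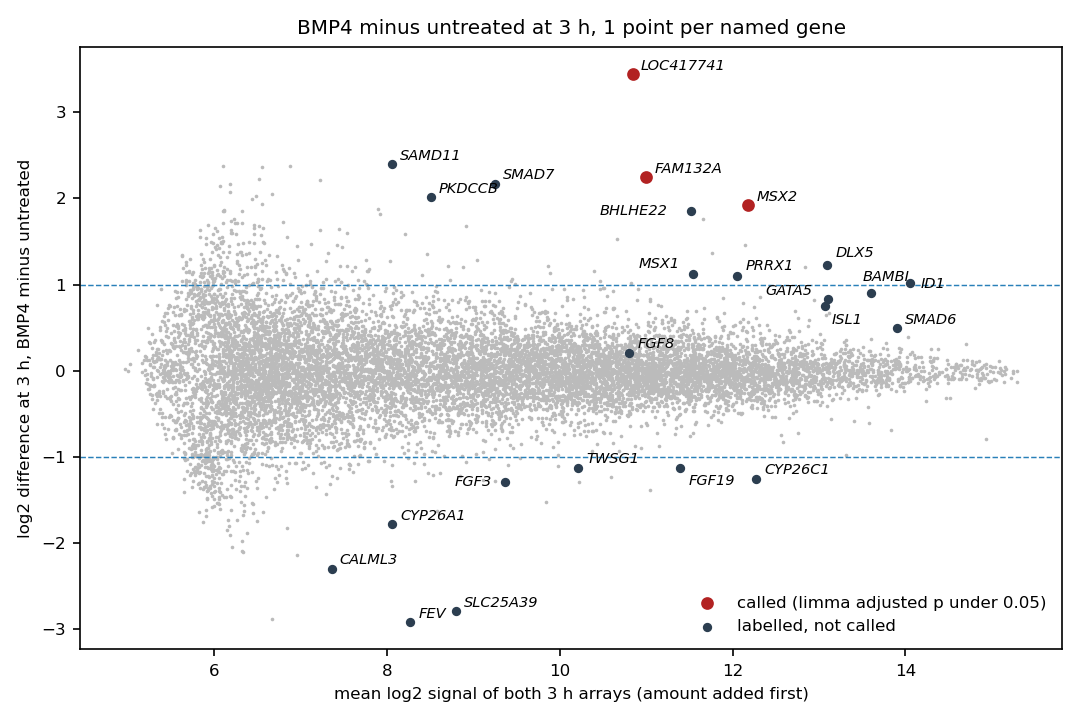
Log2 difference at 3 h, BMP4 minus untreated (vertical axis), against the mean log2 signal of both 3 h arrays (horizontal axis), 1 point per named gene, with dashed lines at 2-fold. LOC417741 (3.44), FAM132A (2.24) and MSX2 (1.92) are the called genes, while the cloud is widest on the left, where signals are dim.

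Genes that damp the BMP signal at the receptor or inside the cell had a median difference of 0.39 over the 14 tested, against −0.01 over all 11721 named genes tested. None was called. At an unadjusted p under 0.05, 4 were higher and 1 lower, 28.6% and 7.14% of the list. The same rule took 2.24% of all named genes as higher and 1.94% as lower. All gene lists used here were chosen with earlier results of these data known, so such shares describe the lists and test nothing. SMAD7, which blocks the receptors and recruits ubiquitin ligases to them, had 258 untreated and 1259 with BMP4 at 3 h, 400.5 and 311 against 758 and 751 at 12 h, 342 against 442 at 24 h, and 371 at 0 h. The arms did not overlap, and within the BMP4 arm the 3 h array was the highest. The 3 h difference was 2.17 ± 0.34 (limma adjusted p = 0.175), but 2 other SMAD7 probe sets gave −0.14 and −1.19, so the probe sets of the gene disagreed. BAMBI, a decoy receptor without a kinase domain, had 9101 and 16956 at 3 h, 11429.6 and 12436 against 28952 and 27830.2 at 12 h, 16418 against 34014 at 24 h, and 11149 at 0 h. All BMP4 arrays were above all untreated ones; the difference was 0.90 ± 0.14 at 3 h (limma adjusted p = 0.211) and 1.25 at 12 h (limma adjusted p = 0.000781). SMAD6, which competes for the SMAD4 partner, differed by 0.49 at 3 h and 0.55 at 12 h, and DACT1, a regulator of Wnt and TGF-beta family signalling, by 0.81 and 0.29. NEDD9, a scaffold protein, went the other way, with signals of 474 and 209.8 (−1.08).

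Among 37 tested genes known as BMP targets, MSX2 was the 1 called member. At an unadjusted p under 0.05, 10 (27%) were higher and 0 lower, against 2.24% and 1.94% of all named genes. Past 2-fold higher were 7 (18.9%) against 2.21% of all named genes, and past 2-fold lower was 1 (2.7%) against 2.26%. The median of the list was yet 0.02. Of the 37, 19 were positive and 18 negative. DLX5, a homeobox gene of the arches and of bone, had 5679 untreated and 13328 with BMP4 at 3 h, 7566 and 8832 against 13624 and 15054 at 12 h, 11109.9 against 14022 at 24 h, and 4953 at 0 h. The BMP4 arrays were all above the untreated ones, which themselves stood higher at later times; the difference was 1.23 ± 0.18 at 3 h (limma adjusted p = 0.137) and 0.81 at 12 h (limma adjusted p = 0.0223). MSX1, the sister gene of MSX2, differed by 1.12 (1992 to 4357) and HAND2, a basic helix-loop-helix factor of the heart and arches, by 1.06 (266 to 584). ATOH8 differed by 0.82, GATA3 by 0.97 and HHEX by 0.43. STMN2, a tubulin-binding protein of neurons that the list also holds, differed by 1.28 at 3 h and −0.01 at 12 h.

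The ID genes encode helix-loop-helix proteins that hold back differentiation factors and are the most widely used readout of BMP. ID1 had 11949 untreated and 24142 with BMP4 at 3 h, 14342 and 17927 against 15709.7 and 20219 at 12 h, 12727 against 12753 at 24 h, and 10596 at 0 h. The BMP4 3 h array was the highest of the 9, while at 12 h the arms overlapped and at 24 h the difference was 0.00. The 3 h difference was 1.01 ± 0.21 and that at 12 h 0.15; the change between them had an unadjusted limma p of 0.00677 and an adjusted limma p of 0.981. ID4 differed by 0.69 at 3 h and ID3 by 0.34. The probe sets of ID2 were unlike each other: the brightest, with 19648 and 21225, gave 0.11, and 3 dimmer ones gave 0.77 (400.3 to 702), 1.16 (233 to 554) and 0.42 (89.3 to 129). HAND1 was dim in both arms at 3 h (13 and 12.9) and had 119 and 152 with BMP4 at 12 h.

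**Figure D3:**
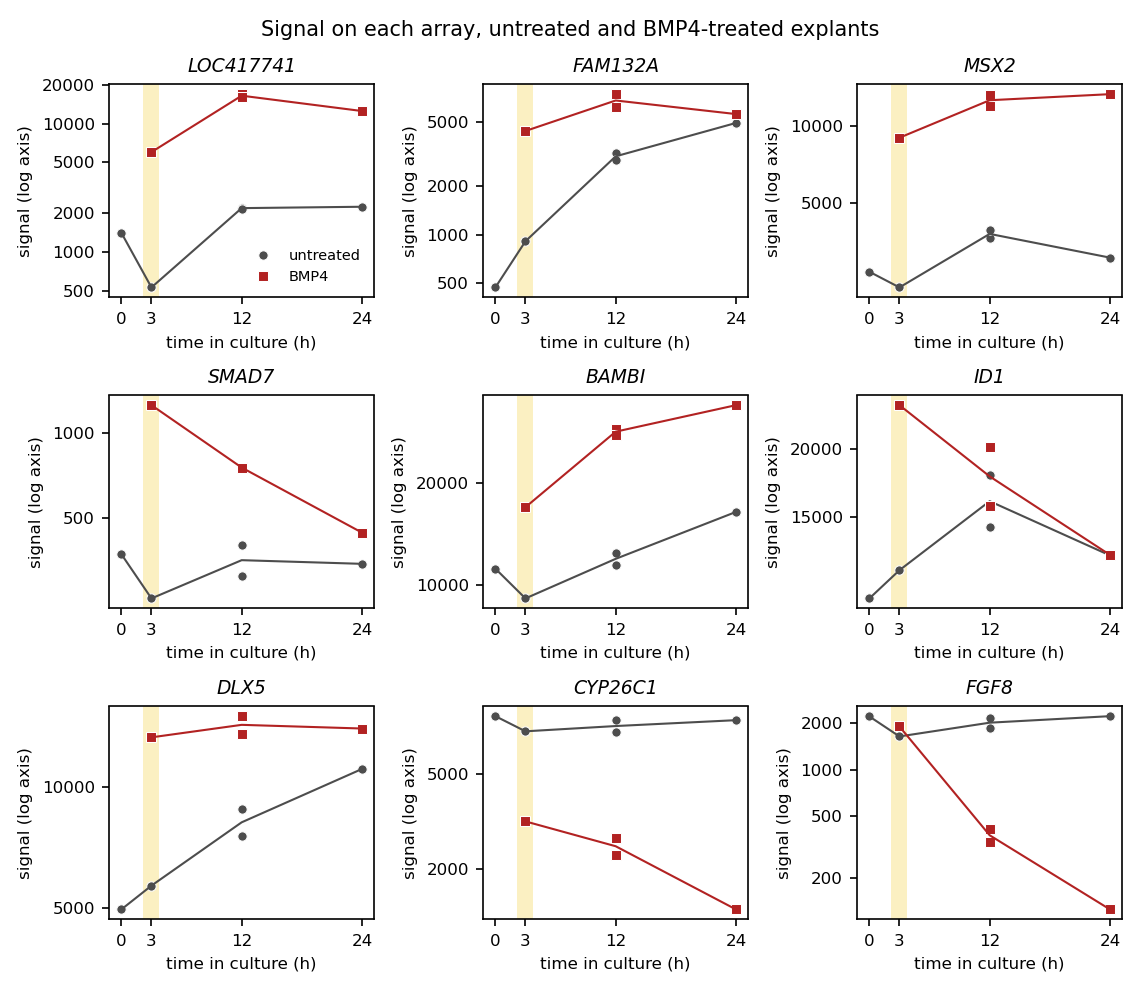
Deposited signal on each array (log axis) against time in culture, for untreated and BMP4-treated explants, with a line through the geometric mean of each arm and the 3 h point shaded. LOC417741, MSX2 and BAMBI stay apart after 3 h, ID1 and SMAD7 are highest with BMP4 at 3 h, and FGF8 parts only after 3 h.

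The ligands, receptors and extracellular binding proteins of the pathway gave no called gene at 3 h. Of 9 ligands (median −0.02), GDF2 alone passed an unadjusted p under 0.05 (36.8 against 100.3). It made up 11.1% of the list, against 2.24% of all named genes as higher. BMP4's own probe set had 111 and 61.8 (−0.63), a reading of chick transcript that the added human protein does not enter. Of 18 receptors, co-receptors and SMADs (median 0.08), SMAD9, a receptor-regulated SMAD that is itself a BMP target, had 80.2 and 265 (1.44), and the rest were between −0.70 and 0.58. Among 13 extracellular binding proteins (median 0.03), TWSG1, which forms complexes with BMP and chordin, had 1723 and 775 (−1.12 ± 0.27, limma adjusted p = 0.875) and at 12 h a difference of 0.29. The 13 ran from −1.12 to 0.94. Of them 3 were higher and 1 lower by more than both duplicate differences, 30.8% of the list against 31.2% of all named genes. The secreted antagonists NOG (−0.23), CHRD (0.21) and FST (−0.22) stayed within 0.25 of 0, and BMPER differed by 0.91 ahead of 1.88 at 12 h. GREM1 did not pass the filter.

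Regulators of heart muscle identity included no called gene at 3 h. Their list too was chosen with earlier results of these data known, so its shares are a description. The 24 cardiac transcription factors tested had a median of 0.38, with 6 higher (25%) and 1 lower (4.17%) at an unadjusted p under 0.05, against 2.24% and 1.94% of all named genes. GATA5 and GATA6, zinc finger factors of the cardiac programme, had 6546 to 11671 (0.83 ± 0.17) and 1109 to 2123 (0.92 ± 0.30). At 12 h GATA5 differed by 0.81 (limma adjusted p = 0.0178) and GATA6 by 0.27. MEF2D (0.68), IRX2 (0.76), HAND2 and ISL1 completed the 6, and NKX2-5 differed by 0.58. TBX5, the lower member, read 55.3 and 8.18, below the median of the arrays, and its second probe set went the other way (17.4 to 58.5, 0.93). TBX3 and TBX20 were also below that median in both arms, and TBX2 did not pass the filter. The 20 progenitor genes of the heart field had a median of 0.16 and 3 members higher (15%): ISL1 (0.76 ± 0.18), NKX2-6 (0.73) and TLX1 (0.61). The same 3 genes differed by 0.46, −0.06 and −0.47 at 12 h. TBX1 differed by −0.32 and EYA2 by −0.18 at 3 h.

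Contractile genes included no called gene at 3 h. The 40 sarcomere and calcium-handling genes tested had a median of 0.21 at 3 h and 0.79 at 12 h. At 3 h 8 were higher (20%) and 1 lower (2.5%) at an unadjusted p under 0.05. Of all named genes 2.24% were higher and 1.94% lower by that rule. None of the 40 was called for a different effect at 12 h than at 3 h, but neither was any probe set of the whole array (0%). Members with bright signals were TNNT2, cardiac troponin T (7021 to 11172, 0.67 ± 0.27), and MYL2, the ventricular regulatory light chain (628 to 1002, 0.65 ± 0.24). At 0 h they read 12911 and 1089, above both 3 h arms. The TNNT2 difference was smaller in size than that between the untreated 12 h duplicates, −0.71. Summed over the 40 genes, the signal was 66844 at 0 h, and 52599 untreated and 63021 with BMP4 at 3 h. MYL2 differed by 1.31 at 12 h (limma adjusted p = 0.00995). MYH7B, a myosin heavy chain, had 224.5 at 0 h, 95.4 and 224 at 3 h, and 258 and 349.9 against 1134 and 914 at 12 h. Several of the wider differences sat on dim readings, such as MYBPC3, a thick filament protein, at 5.66 and 70, LDB3 at 18.5 and 74.2, and the sodium-calcium exchanger SLC8A1 at 77 and 6.47. Other probe sets gave 0.37 and 0.63 for MYBPC3, −0.01 for LDB3 and −0.37 for SLC8A1. ACTC1, cardiac alpha-actin, differed by 0.34 at 3 h (2379 to 3024, with 4026 at 0 h) and 1.14 at 12 h.

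The FGF pathway was divided at 3 h. FGF ligands act through tyrosine kinase receptors and ERK, and the sprouty and DUSP proteins and ETV factors are their feedback and output. The 23 ligands, receptors and cofactors tested had a median of 0.00. Past 2-fold were 1 higher (4.35%) and 2 lower (8.7%), against 2.21% and 2.26% of all named genes. At an unadjusted p under 0.05, 2 were lower (8.7%) and 0 higher, against 1.94% and 2.24% of all named genes. They were FGF3 (1002 to 392, −1.29 ± 0.38, limma adjusted p = 0.9998), whose second probe set gave −1.87, and FGF19 (3947 to 1787, −1.13 ± 0.35, limma adjusted p = 0.9998). FGF8 had 1635 untreated and 1895 with BMP4 at 3 h, 2155 and 1865 against 343 and 415 at 12 h, 2209 against 126 at 24 h, and 2199 at 0 h. At 3 h the BMP4 array lay inside the untreated range, and at 12 and 24 h it was below every untreated array; the difference went from 0.21 ± 0.29 to −2.33 at 12 h, where the ligand fell (limma adjusted p = 0.000914). FGF18 had 1478 untreated and 1166 with BMP4 at 3 h, and that BMP4 reading was below every untreated array. Its difference was −0.33 at 3 h, beyond both duplicate differences (0.28 and 0.04), and −1.99 at 12 h (limma adjusted p = 0.00236). FGF10 read 13.7 and 52.4 at 3 h, 68.5 and 101 against 18.7 and 73.2 at 12 h, and 188 against 13.3 at 24 h.

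The 21 genes of FGF and ERK feedback had a median of −0.23, and none was past 2-fold. Of the 21, 17 were negative, as were 6079 of all 11721 named genes. At an unadjusted p under 0.05, 3 were lower (14.3%) and 0 higher, against 1.94% and 2.24% of all named genes. The 3 were DUSP10 (629.8 to 304, −0.99), SPRY1 (363 to 185, −0.88) and MYC (1457 to 859, −0.74). DUSP10 and MYC differed by 0.23 and 0.00 at 12 h, and SPRY1 by −1.27. The more direct readouts of ERK were near 0 at 3 h, DUSP6 at −0.23, SPRY2 at −0.05, ETV4 at −0.36 and ETV5 at 0.28, where 12 h gave −1.06, −0.43, −1.09 and −0.34. EGR1 differed by 0.22, and FOS was dim. The signs of ETV5 and EGR1 turned when a gene's probe sets were averaged (−0.04 and −0.15).

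**Figure D4:**
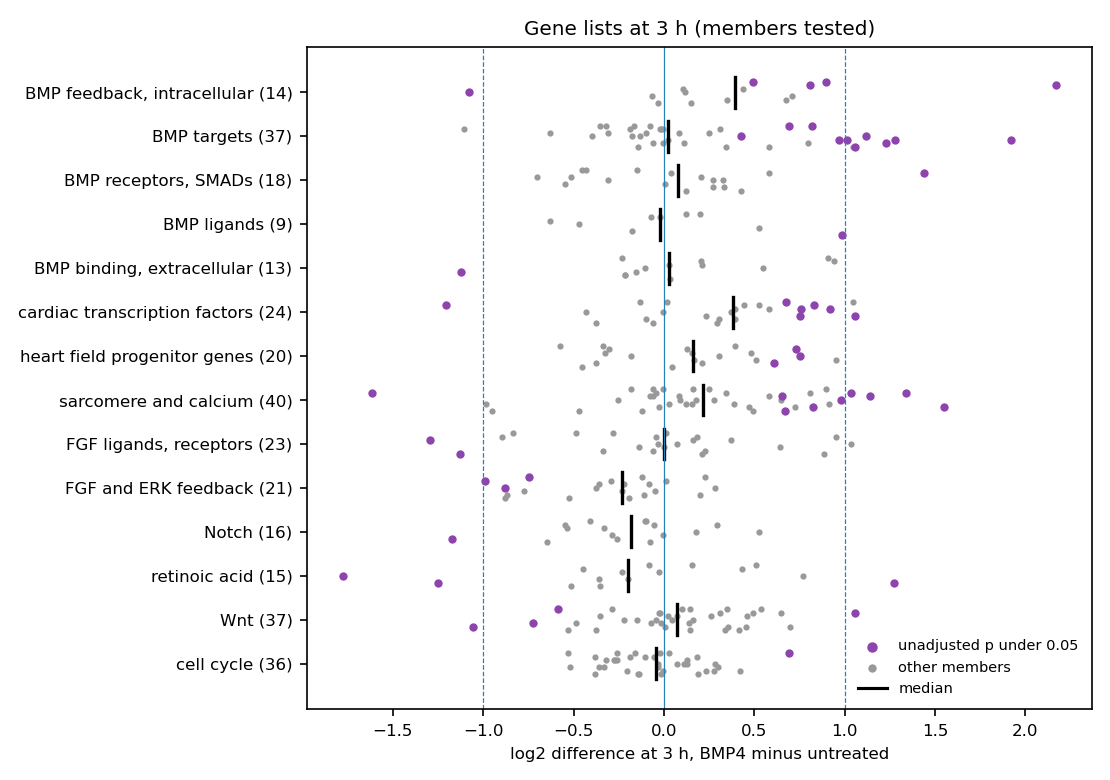
Log2 difference at 3 h, BMP4 minus untreated (horizontal axis), of each tested member of 14 gene lists, with the number tested in brackets, the list median as a bar and members with an unadjusted p under 0.05 in purple. The purple points of the BMP feedback, BMP target and cardiac lists lie mostly to the right, and those of the FGF, Notch and retinoic acid lists mostly to the left.

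Of the genes that degrade retinoic acid, CYP26C1 and CYP26A1 read lower with BMP4 at 3 h, and neither was called. CYP26 enzymes clear retinoic acid and so bound its field along the pharynx. CYP26C1 had 7598 untreated and 3174 with BMP4 at 3 h, 8472 and 7548 against 2710.4 and 2297 at 12 h, 8465 against 1352 at 24 h, and 8800.2 at 0 h. No BMP4 array reached any untreated one. The difference was −1.25 ± 0.21 at 3 h (limma adjusted p = 0.256) and −1.67 at 12 h (limma adjusted p = 0.000914), and 2 further probe sets gave −1.86 and −2.35 at 3 h. CYP26A1 read 465 and 116 at 3 h (−1.78 ± 0.40) and differed by −0.53 at 12 h, while CYP26B1 differed by −0.20. Over the 15 retinoic acid genes tested the median was −0.20. At an unadjusted p under 0.05, 2 were lower (13.3%) and 1 higher (6.67%), against 1.94% and 2.24% of all named genes. The higher one was RXRA (73.2 against 216), and the synthesis enzymes ALDH1A2 and RDH10 differed by −0.08 and −0.36.

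Of 16 Notch genes tested, 13 were negative (median −0.18), as were 6079 of all 11721 named genes. At an unadjusted p under 0.05, 1 was lower, 6.25% of the list against 1.94% of all named genes. It was HES5, a transcriptional repressor downstream of Notch, with 265 and 102 at 3 h (−1.17 ± 0.43) and 305 and 465 against 84.6 and 118 at 12 h, where it fell by 1.66 (limma adjusted p = 0.0445). Its second probe set gave −0.75 at 3 h. HEY1, a bright member, differed by −0.10. The 37 Wnt genes had a median of 0.07. At an unadjusted p under 0.05, 3 were lower (8.11%) and 1 higher (2.7%), against 1.94% and 2.24% of all named genes. RSPO3, a secreted amplifier of Wnt signalling, read 666 and 306 (−1.05 ± 0.40), the receptor FZD8 2845 and 1712 (−0.72) and the antagonist SFRP2 13210.4 and 8793 (−0.59). WNT3A, the higher one, read 37.1 and 107. RSPO3, FZD8 and WNT3A were called in the same directions at 12 h (−2.60, −1.17 and 1.52, limma adjusted p = 0.00265, 0.0242 and 0.0443), and SFRP2 differed there by 0.11.

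Genes of mesenchyme and matrix had medians of 0.19 over 21 and 0.16 over 43. PRRX1, a homeobox gene of arch and limb mesenchyme, had 2878 and 6199.6 at 3 h (1.10 ± 0.22), and 3630.1 and 4505 against 7279 and 8143 at 12 h (limma adjusted p = 0.0282). Its 3 probe sets gave 1.10 to 1.42 at 3 h. It was the 1 mesenchyme gene (4.76%) at an unadjusted p under 0.05. In the matrix list 4 were higher (9.3%) and 0 lower. Of all named genes 2.24% were higher and 1.94% lower by that rule. GPC3, a cell-surface proteoglycan that binds growth factors, had 959 and 2003 (1.04 ± 0.24), and COL1A1 had 6919 and 10807 (0.64). FBN2 (92.2 against 222) and CD44 (12.4 against 85.3) were dimmer. Other probe sets gave 0.42, 0.58 and 0.46 for FBN2 and 0.03, 0.23 and −0.30 for CD44, so those of CD44 disagreed.

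Growth and stress genes were near 0. The 36 cell cycle genes had a median of −0.04 at 3 h and −0.40 at 12 h. BIRC5 (0.69) was the 1 higher at an unadjusted p under 0.05, 2.78% of the list against 2.24% of all named genes. Of 21 genes of arrest and apoptosis (median 0.04) 1 (4.76%) passed that rule, CDKN2C, on dim readings (12.7 against 85.6). Of 18 immediate early genes (median −0.08) MYC, given above, was the single one to pass (5.56% lower, against 1.94% of all named genes). The 21 heat shock and stress genes had a median of 0.00. CHAC1, a glutathione-degrading enzyme of the amino acid stress response, was the one to pass (4.76% lower). Its signal at 3 h was 8850.5 untreated and 5366 with BMP4 (−0.72), against 346 at 0 h and 260.3 and 264 untreated at 12 h. Both 3 h readings were above all those of other times. Of 9 hedgehog genes (median 0.06) GLI3 passed (0.57), 11.1% of the list.

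Markers of other cell types gave no called gene, and the share of the explants that each type made up was not measured. In bulk RNA, fewer cells of a type and less RNA per cell cannot be told apart. The 22 endoderm and epithelium markers had a median of 0.11 and summed signals of 91916 untreated and 98623 with BMP4. At an unadjusted p under 0.05, 3 of them were higher (13.6%, against 2.24% of all named genes): SOX17, an endoderm factor (1693 to 2894, 0.76), and the GATA3 and HHEX already given. The 13 neural crest markers had a median of −0.17 and sums of 22912 and 31526. DLX5 and MSX1 were higher by that rule (15.4%) and SOX8 lower (7.69%, 929 to 487), against 2.24% and 1.94% of all named genes. DLX5 (5679 to 13328) and MSX1 (1992 to 4357), given above as BMP targets, together rose by more than the sum did. The crest factors SOX10 and FOXD3 differed by −0.53 and −0.44. The 14 neural markers had a median of 0.12 and sums of 18224 and 17883. STMN2 and SIX3 (90.1 against 214) were higher by the same rule, 14.3% of the list. None passed among 18 endothelial (median 0.09, sums 11731 and 12381), 13 blood (0.11, 4941 and 4818), 7 skeletal muscle (0.16, 5004 and 5809) and 10 smooth muscle markers (−0.07, 9926 and 11361). Among defining genes, CDH5 of endothelium read 1158 and 1162, and MYF5 of skeletal muscle 33.7 and 13.6. The part of other cells in the 3 h differences was not tested.

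The widest differences at 3 h were ranked among genes with a signal of at least 100 in the higher arm and a difference beyond both duplicate differences of 12 h, a last condition that 31.2% of all named genes met. Of all named genes 2.21% were 2-fold higher and 2.26% 2-fold lower. Of the 15 highest, 9 had a lower-arm signal under 27.79, so their fold rests on the amount added. A cut at 50 in the lower arm was not part of the naming rules, and no share of all named genes was taken at it. The 5 at or above it were LOC417741, SAMD11, FAM132A, SMAD7 and PKDCCB. Each of those 5 was also higher in both BMP4 arrays of 12 h. Over all 15 this held for 8 (53.3%), against 20.8% of all named genes. The condition on the duplicates favours genes with close 12 h arrays. With the same limits but under 2-fold higher at 3 h, it held for 37.4% of 1160 genes. SAMD11, a nuclear protein with a SAM domain, read 88.2 and 581 at 3 h (2.39 ± 0.42, limma adjusted p = 0.301) and 142 and 92.5 against 449 and 590.4 at 12 h. Its 2 dimmer probe sets gave −1.30 and −0.49. PKDCCB, related to the secreted tyrosine kinase PKDCC, read 153 and 702 at 3 h (2.01 ± 0.39) and 172 and 261 against 726 and 874 at 12 h. The other 10 were OC90, LOC426820, C1orf106, PRR16, HCRT, THEMIS2, PGM5, TNFRSF14, ADRA2C and PCYOX1L. Their untreated signals ran from 2.23 to 41.5, and none of them was called at 12 h. Other probe sets gave 0.37, −1.27 and 0.19 for LOC426820 and 0.02 for THEMIS2. In 13 of the 15 the untreated 3 h signal was below that of 0 h, and in 13 the BMP4 3 h signal was above it. Of all 11721 named genes these held for 6026 and 5673. A ranking on the 3 h difference itself favours both.

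Of the 15 lowest, 5 (33.3%) were lower in both BMP4 arrays of 12 h, 4 (26.7%) were higher in both and none was called there. Of all named genes 19.8% and 20.8% did not overlap in these directions. With the same limits but under 2-fold lower at 3 h, 32.7% and 24.9% of 1419 genes did not. FEV, an ETS-family factor of serotonin neurons in mouse, read 817 and 84.3 at 3 h (−2.91 ± 0.53, limma adjusted p = 0.354), and its second probe set gave −0.21. SLC25A39, a mitochondrial carrier, read 1141 and 142, and one of its 12 h BMP4 arrays (1223) was near the untreated 3 h value while the other was 396. Its other probe sets gave 0.20 (305 to 353) and −0.58 at 3 h. CALML3, a calmodulin-like protein, read 335 and 46.2, with 272 and 245 at 12 h, and its second probe set gave −0.03. GLIPR1L, DEFB4A, TDRKH, CDH23, PIK3AP1, LOC770187, PDZRN4, AQP2, TMEM209, RNF146 and MIER2 read between 8.52 and 32.9 with BMP4. Second probe sets went the other way for GLIPR1L (1.27, 20.3 to 88.5), CDH23 (0.55) and TMEM209 (0.14). CYP26A1, given above, completed the 15, of which 9 had a lower-arm signal under 27.79. With at least 50 in the lower arm were 3 of the 15, and 2 of these were lower in both BMP4 arrays of 12 h. In 14 of the 15 the untreated 3 h signal was above that of 0 h, and in all 15 the BMP4 3 h signal was below it. Of all 11721 named genes these held for 5694 and 6048. The ranking favours both here too.

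The 12 h arrays did not enter the 3 h difference and show which early differences were seen again. Their duplicates did supply the error for the p-values of both times, so calls at 3 h and 12 h are not independent. With the same limits on signal and spread, 130 named genes were 2-fold or more higher at 3 h and 97 lower. At 12 h 49 of the 130 (37.7%) were higher in both BMP4 arrays than in both untreated ones, against 20.8% of all named genes, and 41 of the 97 (42.3%) were lower, against 19.8%. In limma 15 of the 130 were called higher at 12 h and 10 of the 97 lower, where 0.683% and 0.341% of all named genes were called. These shares are not a like-for-like comparison. The limit on spread favours genes with close duplicates: with the same limits but under 2-fold at 3 h, 37.4% of 1160 genes with a higher and 32.7% of 1419 with a lower 3 h signal were apart at 12 h in that direction, and 2.33% and 0.987% were called. That set differs in signal too, since 32 of the 130 and 22 of the 97 had a lower-arm signal under 27.79 and none of the 1160 or 1419 did. The 25 genes called in the same direction, named after their values were seen, include on the higher side BHLHE22, a basic helix-loop-helix repressor (1513 to 5558, 1.86 ± 0.25, limma adjusted p = 0.0969 at 3 h and 0.000784 at 12 h). FIBIN, named for fin bud initiation in fish, read 2709.8 and 7483, the decoy receptor IL13RA2 193 and 536, the orphan nuclear receptor NR0B1 119.8 and 301, and ERC1 245 and 608. The rest of the 15 were LOC417741, SAMD11, FAM132A, PKDCCB, MSX2, DLX5, PRRX1, WNT3A, GPC3 and MYH7B. On the lower side, DACT2, a modulator of Wnt and Nodal signals, read 1844 and 734 (−1.30 ± 0.28), and C11orf96 1529 and 516 (−1.52 ± 0.26). NTNG2 (641 against 189), FAM163B (100.2 against 14.1) and BPIFB2 (164 against 59.7) joined FGF3, FGF19, HES5, CYP26C1 and RSPO3. None of the 25 lies on chromosome Z or W in the RefSeq table of assembly GRCg7b, whose genes as a class differed between the 12 h arms by a median of 0.239 (550 Z genes) and −0.58 (15 W genes) but by −0.024 and −0.083 at 3 h. Z-linked genes named here include SMAD7, ISL1, FGF10, FBN2, PRR16, PGM5 and LOC770187. The part of this shift in their 12 h differences was not tested.

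**Figure D5:**
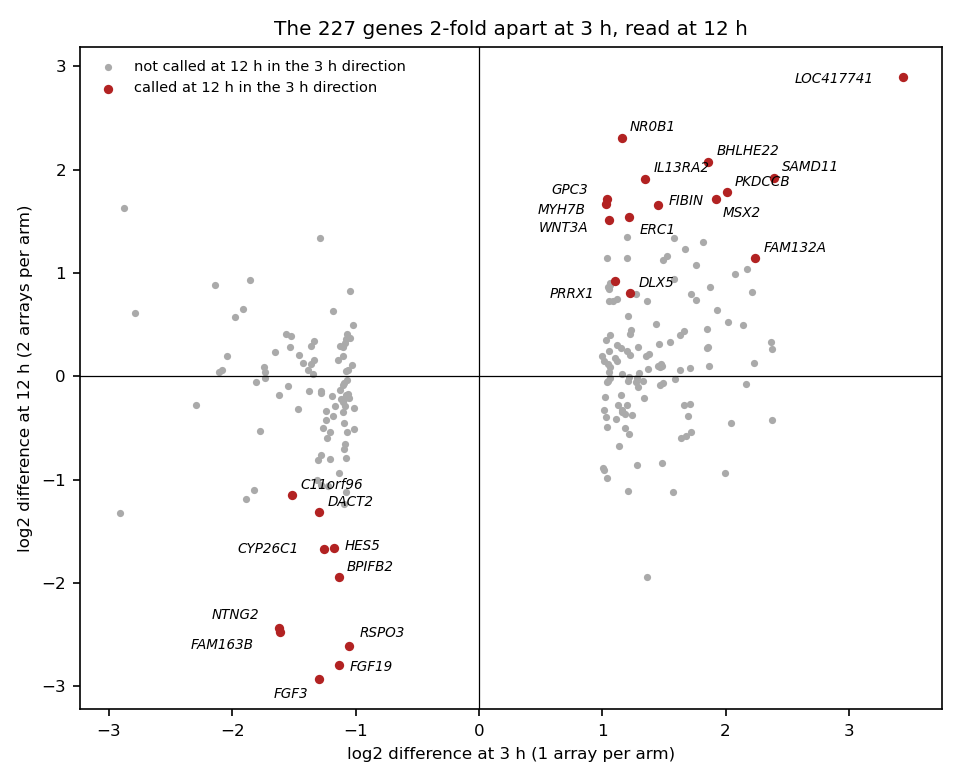
Log2 difference at 12 h (2 arrays per arm, vertical axis) against that at 3 h (1 array per arm, horizontal axis) for the 227 named genes 2-fold or more apart at 3 h, beyond both duplicate differences and with a signal of at least 100. The 25 genes called at 12 h in the 3 h direction are in red, and the others lie on both sides of 0 at 12 h.

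Whether the response at 3 h differed from later ones was tested as the change of the BMP4 effect between times. From 3 h to 12 h 0 probe sets were called in limma (0%), with 1340 at an unadjusted p under 0.05 and a smallest adjusted p of 0.139. From 3 h to 24 h, with 1 array per arm at both ends, 17 probe sets were called, 4 with a higher (0.0141%) and 13 with a lower (0.0459%) effect at 24 h, and 15 named genes (0.128%) were called by their representative probe set. FGF8, FGF18 and FGF19 were among the lower ones, FGF19 with a 3 h difference of −1.13 and a 24 h difference of −5.04. Of the 3 genes called at 3 h none was called for a change between times: FAM132A came nearest, with a change of the effect of −2.06 from 3 h to 24 h (limma adjusted p = 0.0792).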

How the data were processed

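Total RNA of 9 samples was read on 1 Affymetrix chicken array each. The authors deposited 1 linear signal intensity per probe set; the submitters' processing notes name MAS5, and its version and scaling target are not given in the sources used here. The values were used without further scaling, since the trimmed means of the arrays were within 503.7 to 504.7. Of 38535 probe sets, 96 Affymetrix controls were left out. A filter kept the 28329 that were above the 40th percentile on 2 or more arrays and dropped 10110. Tests used log2 of the signal plus 27.79, the 25th percentile of the table, in limma 3.58.1 (R 4.3.3), with 7 group means. The fit had a variance trend over signal and 2 residual degrees of freedom. Empirical Bayes moderation drew each variance toward that trend with 8.2 prior degrees of freedom, so the error also borrows from other probe sets. Benjamini-Hochberg adjustment ran over the 28329. The p-values are two-sided, and ± gives the moderated standard error. In simulated data the fit recovered the largest added changes on average. All simulated arrays, those of 3 h included, were drawn with the spread of the 12 h pairs, so that assumption was not tested. The number of arrays limits the precision.

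Probe sets were named from the platform annotation and the RefSeq gene table (assembly GRCg7b): 27168 had 1 symbol, 177 several and 11094 none. A gene is represented by its brightest probe set on average, and 11721 named genes were tested. The 27 gene lists hold 553 tested entries, 51 more were dropped by the filter, and for 103 no probe set was found by symbol or synonym. Genes were named if called at 3 h, if among the 15 highest or lowest, or if on a fixed list of regulators. Up to 6 members of a list with the lowest unadjusted p under 0.05 were named too. Others are marked, stand for the tissue check or were picked as examples under none of these rules. Among the examples are CHRD, FST, CYP26B1, ALDH1A2, RDH10, EYA2, SOX10 and FOXD3. Members, lists and rules were chosen with earlier results of these data known. Alternatives changed the added amount, the filter, the normalization, the variance trend, the arrays used, the threshold and the probe set rule.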

Additional observations from a re-analysis of the deposited data

Results flagged for a closer look

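The 15 named genes below (0.128% of those tested) stand out because their BMP4 effect at 24 h differed from that at 3 h by a test of the change itself, the interaction term in limma, with adjusted p-values from 0.00604 to 0.0474. Each value is the log2 effect at 24 h minus that at 3 h, with 1 array per arm at both times.

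The effect was lower at 24 h for genes of FGF signalling and of placodes or brain: FGF8 (−4.08), FGF19 (−3.91) and FGF18 (−3.12) among ligands, and the transcriptional regulators PAX6 (−5.13) and EYA2 (−3.29). The neuropeptide gene NPY (−4.26) read 1594 and 1473 at 3 h and 10287 and 469 at 24 h. Also lower were ZPLD1 (−6.65), LOC419390 (−4.17), C2orf40 (−3.53), CYTL1 (−3.25), the lymphatic growth factor VEGFD (−2.89) and the carbonic anhydrase CA9 (−2.43). ZPLD1 read 25.1 and 108 at 3 h, and 2588 and 39.4 at 24 h.

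The effect was higher at 24 h for PRPS2 (4.88), an enzyme of nucleotide synthesis, for the alkaline phosphatase ALPPL (4.44) and for SNTB1 (2.71), a syntrophin. PRPS2 read 80.4 and 61.1 at 3 h against 151 and 4309 at 24 h. Apart from FGF19 (−1.13) and ZPLD1 (1.36), none of the 15 differed 2-fold at 3 h.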

How the results depend on the processing

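The 4 probe sets called at 3 h were the same 4 with 8 or 100 added before log2, without the filter, with a filter at the 60th percentile, with quantile normalization and with the 3 h and 12 h arrays alone, and they were kept among 5 at an adjusted p under 0.10. Without the variance trend 0 were called at 3 h, 12 h and for the change to 24 h (1564, 2339 and 2021 at an unadjusted p under 0.05). Leaving out 1 of the 12 h arrays gave 8 to 11 calls at 3 h (7 to 8 higher and 1 to 3 lower, always with the 4), 99 to 187 at 12 h, 0 to 2 for the change from 3 h to 12 h and 52 to 59 for that to 24 h; BHLHE22 and LOC418543 were added each time, DLX5, SLC25A39 and CYP26C1 without either BMP4 array (10 without A, 11 without B) and FEV without either untreated array (8 each). The 12 h calls, 174 as reported, were 86 and the 24 h change calls, 17 as reported, were 1 without the filter; at an adjusted p under 0.10 they were 323 and 38. Probe sets 2-fold higher and lower at 3 h, 916 and 937, became 1916 and 1901 with 8 added, 98 and 67 with 100 added, and 336 and 306 with the stricter filter. The sign turned for HAND1 with quantile normalization (0.012) and, when all probe sets of 1 gene were averaged, for ETV5 (−0.044), EGR1 (−0.15) and TBX20 (0.58). The 106 named genes were read under the settings other than the 0.10 threshold. Of their values 1321 kept direction and side of the threshold, 35 passed it newly, 4 no longer passed and 4 turned. Settings that changed only the variance model or the arrays of other times could not turn a 3 h difference. Most of these genes were also far from the threshold in the reported fit, so the counts do not measure robustness. Of the list values 440 stayed and 46 moved. The median of all probe sets stayed between −0.0114 and −0.0036.

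The 12 h arrays carry the letters A and B in both arms, which are not shown to mark a shared batch: deviations of same-letter arrays correlated at 0.126 over the probe sets. With the letter as a replicate block 115 were called at 3 h (74 higher, 41 lower), 1106 at 12 h, 136 for the change from 3 h to 12 h and 612 for that to 24 h, and the 4 calls were among the 115; the cause was not tested.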

Other observations

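Genes of the sex chromosomes, read after the main results were seen, varied between samples as a class. Male chicks carry a pair of Z chromosomes and females a Z and a W. Relative to each gene's mean over the 9 arrays, the 15 W-linked genes had medians of −0.353 untreated and −0.436 with BMP4 at 3 h, and the 550 Z-linked genes 0.067 and 0.036. The 3 h arms were thus close in both. At 12 h the untreated arrays A and B had W medians of 0.135 and 0.784 and Z medians of −0.011 and −0.263, whereas both BMP4 arrays were near each other, at −0.128 and −0.101 for W and 0.104 and 0.12 for Z. At 24 h the W medians were −0.01 untreated and 0.745 with BMP4, and at 0 h −0.678. The autosomal medians lay between 0 and 0.017.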
